A study of Mus musculus with 8 samples.

Results

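The genes described here write or remove methylation on lysine 9 of histone H3 (H3K9). They are 9 genes chosen by symbol, 6 H3K9 methyltransferase genes (Setdb1, Setdb2, Suv39h1, Suv39h2, Ehmt1 and Ehmt2) and 3 demethylase genes of the KDM4 family (Kdm4a, Kdm4b and Kdm4c). All 9 were found in both expression tables of the study, among 18645 genes in the table of hepatic stellate cells (HSC) and 17408 in the table of bone marrow-derived macrophages (BMDM). The group was put together because Setdb2 was lower with auranofin in BMDM. The BMDM values of all 9 genes are therefore given as a description without a test. For these genes only the HSC comparison was tested.

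Auranofin is a gold compound used against rheumatoid arthritis. RNA was sequenced from cells of C57BL/6 mice in 4 groups of 2 libraries. Activated HSC, the collagen-producing cells of the liver grown on plastic, were left as control or received 0.03 µM auranofin for 12 h. BMDM, grown from bone marrow with M-CSF, were all primed with 100 ng/mL LPS and then given 1 mM ATP. Their auranofin group received the drug at 0.1 µM by the sample labels, for 1 h by the paper, which gives another concentration for this experiment. LPS and ATP were thus present in the BMDM controls too, and neither was given to HSC. The sources used here do not say whether libraries of a group came from separate mice or cultures, so p-values measure only the spread between these samples, which may be technical.

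Trimethylated H3K9 is a mark of silent chromatin. SETDB1 deposits it with its partner ATF7IP at sites to which TRIM28 is recruited, SUV39H1 and SUV39H2 maintain it in pericentromeric heterochromatin, and EHMT1 and EHMT2 (GLP and G9a) act as a pair that adds mono- and dimethyl groups along genes. SETDB2 is a SETDB1 relative that interferon induces in macrophages, where it has been described as repressing inflammatory genes. The KDM4 enzymes remove trimethyl groups from H3K9, and HP1 proteins, encoded by Cbx1, Cbx3 and Cbx5, read the mark.

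The values are FPKM, that is, fragments scaled to the transcript's length and to the library's mapped fragments, so that genes within a table can be compared per length. The estimated depth was between 29800000 and 39400000 fragments in HSC libraries and between 27500000 and 34900000 in BMDM libraries. The HSC libraries held macrophage transcripts beside those of stellate cells. In HSC controls, the 12 macrophage markers summed to 8697 to 8792 FPKM, led by Lyz2, and the 12 stellate markers to 4634 to 4755 FPKM, led by Col1a1 and Acta2. With auranofin these sums were 8505 to 8522 and 4087 to 4153 FPKM. Acta2 (log2 fold change -0.38, adjusted p = 0.00719) and the liver endothelial genes Stab2 (-0.37, adjusted p = 0.0169) and Clec4g (-0.44, adjusted p = 0.013) were called lower by limma, and their part in the HSC calls below was not tested. The 8 endothelial markers did not move together. Their median was -0.01, with 4 below 0 and 4 above it, among these Cdh5 (0.14) and Kdr (0.17). In BMDM controls the macrophage and stellate markers summed to 11450 to 11828 and 10.4 to 13.4 FPKM. The HSC values below are therefore those of a mixture, in which fewer cells of a type and less RNA per cell cannot be told apart.

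The 2 auranofin libraries of BMDM differed from each other. Of 4245 genes whose mean reached 10 FPKM, 383 were 2-fold or more apart between them. Replicate 1 was that far from the control libraries in 368 and 377 genes, and replicate 2 in 15 and 12 genes, near the 14 genes between the controls. Hmox1, the oxidative stress-induced heme oxygenase gene, had 82.7 and 86.7 FPKM in BMDM controls, 4403 FPKM in the first auranofin library and 85.3 FPKM in the other. In HSC it had 391 and 368 FPKM in controls and 1297 and 1141 FPKM with auranofin. The library labelled BMDM auranofin replicate 2 thus lay close to the controls at this gene and at most others, and these data do not show whether it was exposed as labelled. For the 9 genes, the values of both BMDM auranofin libraries are therefore given separately, and each BMDM mean with auranofin (n = 2) holds this doubt.

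Setdb2 was one of the most abundant of the 9 transcripts in BMDM and one of the least abundant in HSC. Its level in BMDM was 37.6 and 35.2 FPKM in the controls and 20.8 and 20.5 FPKM with auranofin. Both auranofin libraries lay below both controls and close to each other, although these libraries differed widely at other genes. The mean was 36.4 ± 1.65 FPKM (SD, n = 2) in controls and 20.7 ± 0.178 FPKM (SD, n = 2) with auranofin, 0.568 of the control level. On the log2(FPKM + 1) scale, replicate 1 was 0.78 and replicate 2 was 0.80 below the control mean, where the controls lay 0.04 either side of it. These are the values by which the group was chosen.

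In HSC, Setdb2 had 2.40 and 2.90 FPKM in the controls and 2.37 and 2.90 FPKM with auranofin. The auranofin values fell on the control values, at estimated depths of between 212 and 342 fragments. The log2 fold change was -0.01 (95% interval -0.27 to 0.25, adjusted p = 0.981 by limma with Benjamini-Hochberg adjustment over 12149 genes). This interval does not reach a 1.5-fold change in either direction. The 2 experiments differ in dose, time and LPS/ATP, and their tables were normalized separately, so HSC and BMDM were not tested against each other.

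**Figure D1:**
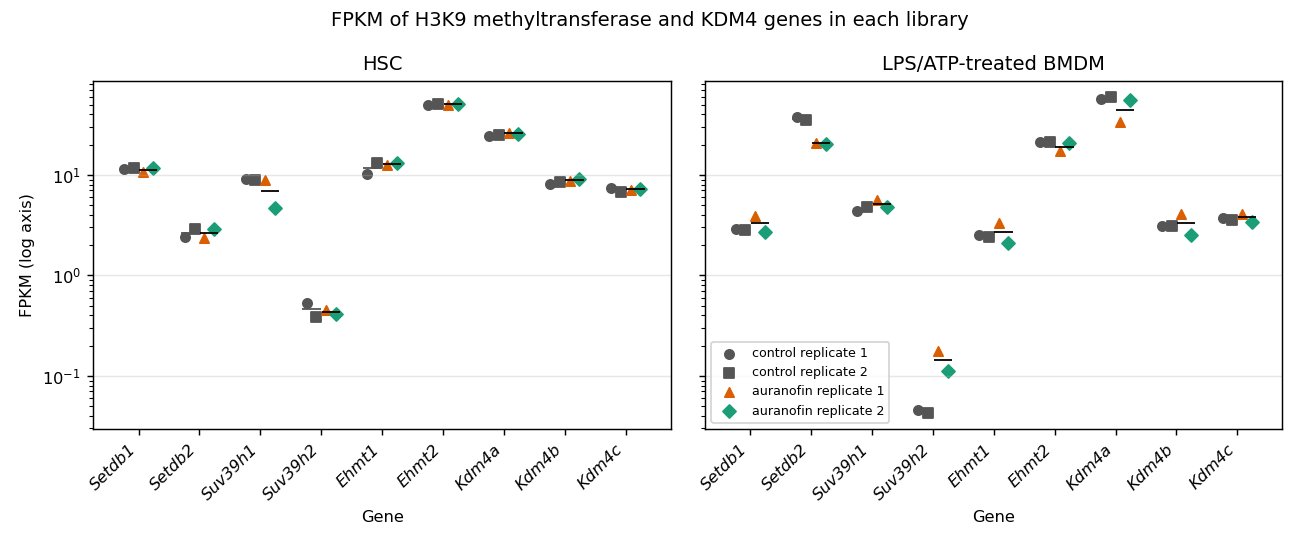
FPKM of the 9 genes in each library of HSC (left) and LPS/ATP-treated BMDM (right), on a log axis, with a short line at each group mean (n = 2). Setdb2 lies between 2.37 and 2.90 FPKM in all 4 HSC libraries and in BMDM lies at 35.2 and 37.6 FPKM in controls and at 20.8 and 20.5 FPKM with auranofin, while Kdm4a is lower in only 1 of them.

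Setdb1, the closest relative of Setdb2, showed no such pattern. In BMDM it had 2.87 and 2.86 FPKM in controls, 3.92 FPKM in auranofin replicate 1 and 2.69 FPKM in replicate 2, on either side of the controls. In HSC it had 11.5 and 11.6 FPKM in controls and 10.7 and 11.8 FPKM with auranofin, a log2 fold change of -0.04 (95% interval -0.18 to 0.11, adjusted p = 0.797 by limma). The ratio of Setdb2 to Setdb1 was between 0.208 and 0.251 in the 4 HSC libraries. In BMDM it was 13.1 and 12.3 in controls and 5.31 and 7.64 with auranofin. The order of these relatives was thus opposite in the 2 tables, and it stayed so with auranofin.

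Ehmt2, encoding G9a, was the most abundant of the 6 methyltransferase transcripts in HSC, with 49.3 and 51.3 FPKM in controls and 49.8 and 50.9 FPKM with auranofin. Its log2 fold change was 0.00 (95% interval -0.09 to 0.10, adjusted p = 0.993 by limma). In BMDM Ehmt2 had 21.2 FPKM in both controls, 17.3 FPKM in auranofin replicate 1 and 20.7 FPKM in replicate 2. Both auranofin values lay below the controls, but replicate 2 by only 0.03 on the log2 scale. Ehmt1, the partner of Ehmt2, had 10.3 and 13.1 FPKM in HSC controls and 12.6 and 13.0 FPKM with auranofin (log2 fold change 0.13, 95% interval -0.13 to 0.38, adjusted p = 0.577 by limma). In BMDM it had 2.50 and 2.42 FPKM in controls, 3.29 FPKM in auranofin replicate 1 and 2.08 FPKM in replicate 2, again on either side of the controls.

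Suv39h1 was low in a single HSC library. It had 9.10 and 9.0 FPKM in controls, 9.0 FPKM in auranofin replicate 1 and 4.73 FPKM in the other auranofin library. The log2 fold change of -0.41 (95% interval -1.0 to 0.19) did not pass the test, with an adjusted p of 0.438 by limma. With auranofin replicate 2 left out it was -0.01. With replicate 1 left out it was -0.81, and the adjusted p from limma was 0.00677 where the lone library was assumed to vary like the controls. In auranofin replicate 2 the neutrophil marker S100a9 was also highest, at 44.7 FPKM against 2.23 to 10.8 FPKM in the other 3 HSC libraries. The 6 neutrophil markers summed to 6.75 to 17.6 FPKM in controls and to 6.18 and 70.0 FPKM with auranofin, with S100a8, Camp and Ly6g also highest in replicate 2 and Mpo and Elane at or near 0 in all 4, and their part in the Suv39h1 value was not tested. In BMDM Suv39h1 had 4.34 and 4.78 FPKM in controls and 5.57 and 4.81 FPKM with auranofin, just above the controls in replicate 2.

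Suv39h2 was the lowest of the 9 genes in both tables, below the mean of 1 FPKM set for the test. In HSC it had 0.537 and 0.387 FPKM in controls and 0.454 and 0.413 FPKM with auranofin, an estimated 30 to 73 fragments per library. In BMDM it had 0.0461 and 0.0424 FPKM in controls, an estimated 3 to 6 fragments, and 0.177 and 0.113 FPKM with auranofin, an estimated 9 to 27 fragments. At these depths no fold is given for BMDM.

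Kdm4a was the most abundant demethylase transcript of the group in both cell types. In HSC it had 24.5 and 24.8 FPKM in controls and 26.4 and 25.8 FPKM with auranofin, a log2 fold change of 0.08 (95% interval -0.01 to 0.18, adjusted p = 0.332 by limma). In BMDM it had 57.3 and 59.8 FPKM in controls, 33.3 FPKM in auranofin replicate 1 and 55.7 FPKM in replicate 2. On the log2 scale replicate 1 was 0.80 below the control mean, as far as Setdb2, but replicate 2 only 0.07 below it. The mean difference of Kdm4a in BMDM therefore rests on replicate 1: the log2 fold change was -0.43 with it and -0.07 without it, against -0.79 and -0.80 for Setdb2.

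Kdm4b and Kdm4c did not pass the test in HSC. Kdm4b had 8.06 and 8.58 FPKM in controls and 8.74 and 9.01 FPKM with auranofin (log2 fold change 0.08, 95% interval -0.04 to 0.21, adjusted p = 0.458 by limma). Kdm4c had 7.36 and 6.69 FPKM in controls and 7.15 and 7.18 FPKM with auranofin (log2 fold change 0.03, 95% interval -0.12 to 0.17, adjusted p = 0.861 by limma). In BMDM, Kdm4b had 3.10 and 3.12 FPKM in controls, 4.05 FPKM in auranofin replicate 1 and 2.54 FPKM in replicate 2. Kdm4c had 3.71 and 3.59 FPKM in controls and 4.13 and 3.43 FPKM in auranofin replicates 1 and 2. Both were above the controls in replicate 1 and below them in replicate 2.

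**Figure D2:**
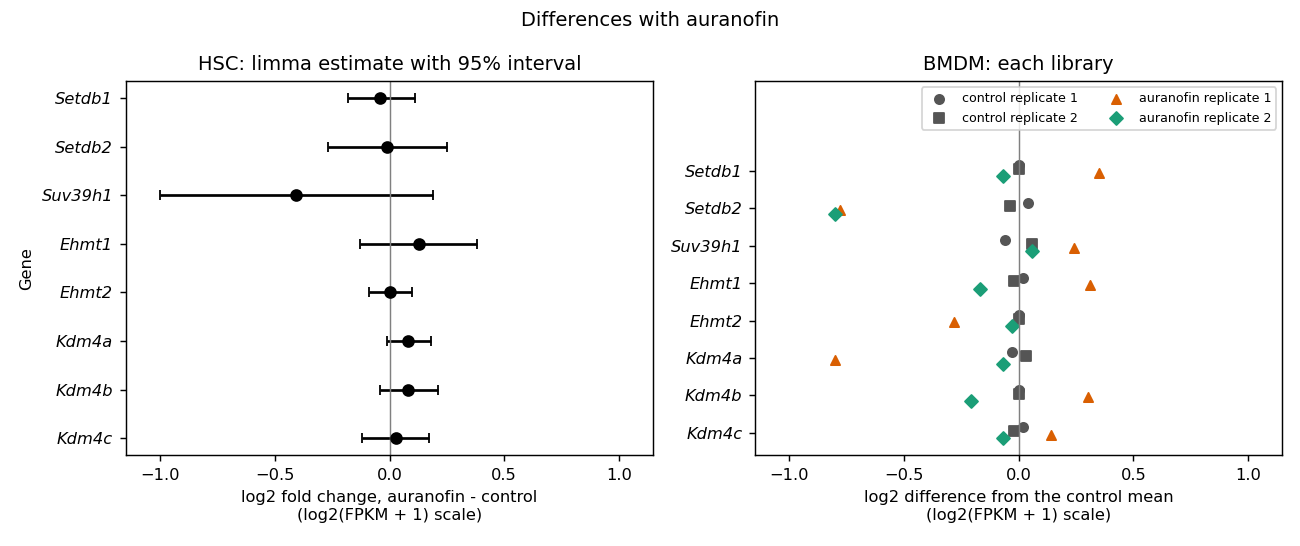
Left, log2 fold change of the 8 tested genes in HSC from limma, with its 95% interval. Right, log2 difference of each BMDM library from the mean of the control libraries. The HSC intervals all include 0, and Setdb2 is the gene at which both BMDM auranofin libraries lie far below the controls (-0.78 and -0.80).

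In all, 8 of the 9 genes passed the filter on low values in each table. In HSC, 0 of these 8 had an adjusted p under 0.05 by limma and 0 had an unadjusted p under 0.05, where 2.33% of all genes tested had an adjusted p under 0.05. Both auranofin libraries lay above both controls in Kdm4a and Kdm4b, as in 26.2% of all HSC genes tested, and below both in Suv39h1, as in 23.9%, although in replicate 1 Suv39h1 was below by less than the last digit printed above. In BMDM, both lay below both controls in Setdb2, Ehmt2 and Kdm4a, as in 12.6% of all genes tested, and above both in Suv39h1, as in 26.3%. Only Setdb2 had a mean log2 difference of at least 1.5-fold, the value by which it was chosen, as did 5.89% of all BMDM genes in either direction. The median log2 fold change of all BMDM genes tested was 0.09, and those of Ehmt1 (0.07), Kdm4b (0.04) and Kdm4c (0.04) were below it and became -0.02, -0.05 and -0.06 when each library was centred on its median.

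The make-up of the 6 methyltransferase transcripts differed between the tables. Setdb2 made up 54.8% and 52.9% of their summed FPKM in BMDM controls and 40.8% and 40.3% with auranofin. In HSC its share was between 2.79% and 3.46% in the 4 libraries, and Ehmt2 made up between 58.1% and 60.8%. The summed FPKM of the other 5 genes in BMDM was 31.0 and 31.3 in controls and 30.2 and 30.4 with auranofin, so that the total fell from 68.5 and 66.6 FPKM to 51.0 and 50.9 FPKM by about the amount of Setdb2 alone. In the BMDM auranofin libraries the values of Setdb2 and Ehmt2 overlapped, whereas Setdb2 was 1.77 and 1.66 times Ehmt2 in the controls.

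**Figure D3:**
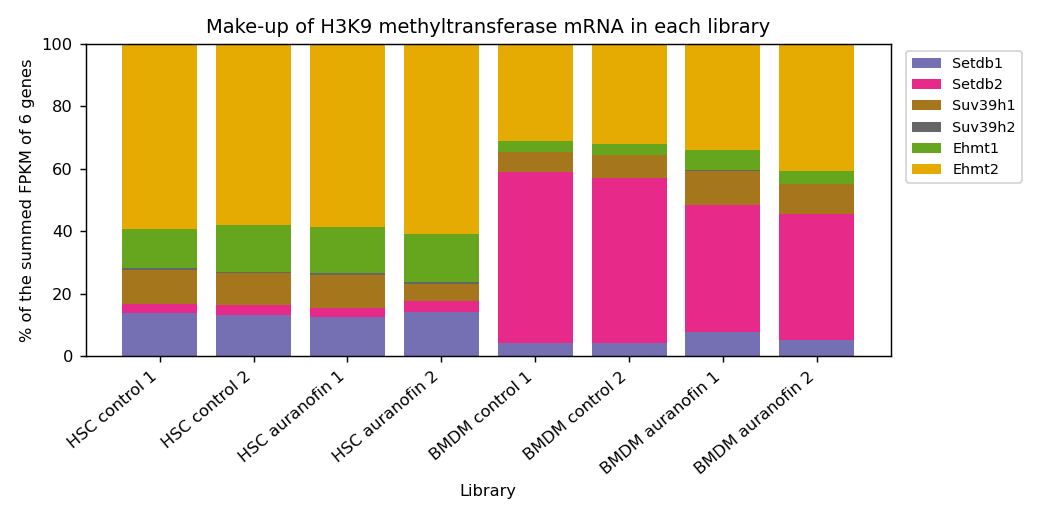
Percent of the summed FPKM of the 6 H3K9 methyltransferase genes contributed by each, in each of the 8 libraries. Setdb2 takes 52.9% to 54.8% in the BMDM controls, 40.3% to 40.8% in the BMDM auranofin libraries and 2.79% to 3.46% in HSC, where Ehmt2 takes the largest share.

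Ordered by their mean level, the HSC controls ran from Ehmt2 (50.3 FPKM) and Kdm4a (24.6 FPKM) through Ehmt1 (11.7 FPKM) and Setdb1 (11.5 FPKM), whose ranges overlapped. Below them came Suv39h1, Kdm4b, Kdm4c, Setdb2 and Suv39h2, with ranges that did not overlap. The BMDM controls ran from Kdm4a (58.5 FPKM), Setdb2 (36.4 FPKM) and Ehmt2 (21.2 FPKM) to Suv39h1, Kdm4c, Kdm4b, Setdb1, Ehmt1 and Suv39h2, also without overlap between neighbours. With the control means of the separately normalized tables side by side, Setdb2 was 13.7 times and Kdm4a 2.38 times as high in BMDM as in HSC, and the other 7 genes were lower in BMDM. The rank of Setdb2 within its table shows the same order without that comparison: it was above 42.8% to 45.1% of all genes in HSC libraries, and above a mean of 89.9% in BMDM controls and 84.5% with auranofin. For Suv39h1 this rank was a mean of 63.5% in HSC controls and 65.7% in BMDM controls, and for Kdm4c 58.6% and 62.6%. Suv39h1 and Kdm4c were thus not lower in BMDM by rank. The FPKM ranges of Suv39h1 over all libraries of the tables overlapped only through HSC auranofin replicate 2 (4.73 FPKM). Its controls had 9.1 and 9 FPKM in HSC and 4.34 and 4.78 FPKM in BMDM.

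Setdb2 lies on chromosome 14 of mm10 (GRCm38), from 59402009 to 59440880 on the minus strand, with 3 RefSeq transcripts. It starts back to back with Cab39l, a gene of the plus strand whose span begins at 59440934, and 53 bases separate the annotated spans. This shared interval is shown because the annotated spans of both genes begin beside it. It is given on the Setdb2 strand, from RefSeq (GRCm38.p6), with each CpG dinucleotide in capitals.
Setdb2 and Cab39l, chr14:59440881-59440933, minus strand: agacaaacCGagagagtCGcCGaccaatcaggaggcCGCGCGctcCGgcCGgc
The interval holds 8 CpG dinucleotides. The 300 bases around the Setdb2 start (250 before it, 50 after) hold 29, more than 87.1% of 32851 such RefSeq windows of 27025 genes, whose median is 7. Cab39l, encoding a scaffold protein of the LKB1 kinase complex, had 14.1 and 15.5 FPKM in BMDM controls, 11.5 FPKM in auranofin replicate 1 and 15.0 FPKM in replicate 2. Replicate 2, in which Setdb2 was low, lay within the control range at Cab39l. Because that library lay close to the controls at most genes, nothing is read from this contrast. The RefSeq start windows of Cab39l lie at 59440713 to 59441012, across the interval, and at 59478701 to 59479000, away from it. The FPKM of Cab39l does not tell its starts apart.

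On the other side of Setdb2 lies the Phf11 cluster, whose members encode PHD finger proteins. The 4 Phf11 genes in both tables were, like Setdb2, higher in BMDM than in HSC. Phf11b had 286 FPKM in both BMDM controls, 176 FPKM in auranofin replicate 1 and 314 FPKM in replicate 2, and between 5.74 and 7.26 FPKM in HSC. Phf11a had 116 FPKM in both BMDM controls, 51.7 FPKM in auranofin replicate 1 and 124 FPKM in replicate 2, and between 1.80 and 2.26 FPKM in HSC. Phf11d had 153 and 145 FPKM in BMDM controls and 103 and 157 FPKM with auranofin, and Phf11c had 18.7 and 11.1 FPKM in controls and 11.5 and 22.0 FPKM with auranofin. All 4 were within or above the control range in auranofin replicate 2, where Setdb2 was not. That library lay close to the controls at most genes, so nothing is read from this count. The Phf11 genes resemble each other, so that reads may have been divided among them, and their single values are uncertain.

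The Setdb2 value is uncertain for a similar reason. RefSeq holds a gene, Gm45935, that spans from Phf11c to the Setdb2 start (59380833 to 59440880) and shares its strand and its start. Gm45935 is not among the genes of either table, and how its reads were assigned is not given in the sources used here. Of the other members, Setdb1 overlaps Cers2, Suv39h2 overlaps Dclre1c, Kdm4a overlaps Gm23382 and Kdm4b overlaps Gm32715 in RefSeq, and the other 4 genes overlap none. Of the 12 genes that RefSeq places within 200 kb of Setdb2, 8 are in both tables, and at none of these 8 were both BMDM auranofin libraries at least 1.5-fold below the control mean. Over all BMDM genes tested, 0.661% were that far from the control mean in replicate 2, in either direction. Nothing is therefore read from this count.

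**Figure D4:**
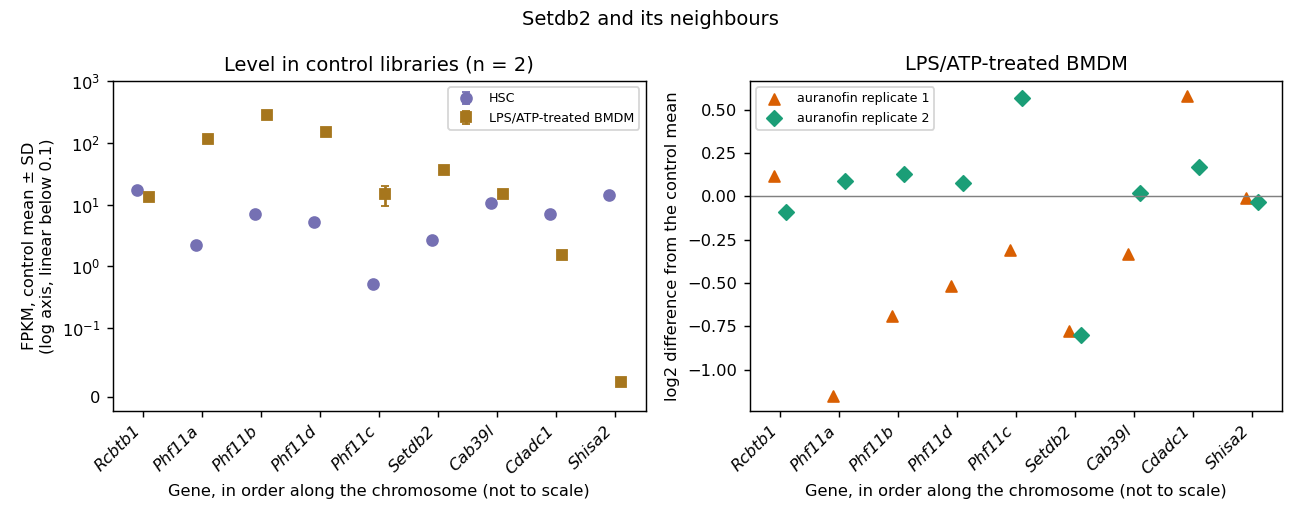
Left, FPKM of Setdb2 and 8 neighbours in the control libraries of HSC and BMDM (mean ± SD, n = 2; log axis, linear below 0.1). Right, log2 difference of each BMDM auranofin library from the control mean, with genes in chromosome order and not to scale. Setdb2 is low in both libraries, whereas Phf11a, Phf11b and Phf11d are low only in auranofin replicate 1.

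Short motifs were looked up in the RefSeq windows of 8 members (11 windows, none for Kdm4b), on both strands. The interferon-stimulated response element, searched as GAAANNGAA, is in 8.56% of all windows and in 0 of the 11, the Setdb2 window included. It is in the windows of Phf11a and Phf11b, which are shown to place the match, in capitals, beside the bases around it. Of the other neighbours with a window, Shisa2, at most 0.0231 FPKM in BMDM, holds a match too, and Phf11c and Phf11d, which were higher in BMDM than in HSC, hold none.
Phf11a, chr14:59297532-59297561, minus strand: cacatttagaGAAAAAGAAactagaaccta
Phf11b, chr14:59341361-59341390, minus strand: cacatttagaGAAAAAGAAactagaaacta
The antioxidant response element, searched as TGACNNNGC, is in 12.4% of all windows and in 4 of the 11, those of Suv39h1, Suv39h2, Kdm4a and Kdm4c. The NF-kB motif (GGGACTTTC or GGGAATTTC, in 0.612% of all windows) and the E2F motif (TTTCGCGC or TTTGGCGC, in 0.813%) are in none of the 11.

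Other genes of H3K9 methylation were examined as a list of 30, of which 26 passed the filter in each table. In HSC, 1 of the 26 was called, against 2.33% of all genes tested. It was Uhrf1, a reader of H3K9 methylation and hemimethylated DNA. It had 15.3 and 16 FPKM in controls and 12.9 and 12.8 FPKM with auranofin (log2 fold change -0.27, 95% interval -0.38 to -0.16, adjusted p = 0.0452 by limma). The median of the 26 was -0.02, with 11 above 0 and 15 below, beside a median of 0.00 over all HSC genes. Uhrf1 is also known as a gene of proliferating cells. The 8 proliferation genes had a median of -0.10 in HSC, with all 8 below 0 and 1 called, the replication helicase gene Mcm2 (-0.25, adjusted p = 0.0439 by limma), and their part in the Uhrf1 value was not tested.

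By role, the 11 tested partners of the writers had a median log2 fold change of -0.02 in HSC with 0 called. Trim28, the most abundant of them, had 66.4 and 69.1 FPKM in controls and 67.3 and 66.4 FPKM with auranofin. The 6 readers had a median of -0.06 with Uhrf1 called, and the HP1 genes Cbx1 (-0.11), Cbx3 (-0.01) and Cbx5 (-0.10) were not. The 8 other H3K9 demethylase genes had a median of 0.02 with 0 called. Outside H3K9, 0 of 20 methyltransferases and 0 of 9 demethylases of other histone lysines were called in HSC, where the share over all genes was 2.33%. Among 4 tested DNA methyltransferase and TET genes 1 was called, the de novo DNA methyltransferase gene Dnmt3a (39.7 and 42.5 FPKM in controls, 32.4 and 34.1 FPKM with auranofin, log2 fold change -0.30, adjusted p = 0.0465 by limma).

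In BMDM many of the same genes lay far from the controls in auranofin replicate 1, and all lay near them in replicate 2. Of the 26 genes, 9 were at least 1.5-fold above and 1 was at least 1.5-fold below the control mean in replicate 1, and 0 in replicate 2. Over all BMDM genes tested, 15.2% were that far above and 8.07% that far below in replicate 1, and 0.661% were that far away in either direction in replicate 2. The greatest differences were at demethylase genes. Kdm7a had 2.44 and 2.49 FPKM in controls, 11.5 FPKM in replicate 1 and 2.17 FPKM in replicate 2. Kdm3a had 2.97 FPKM in both controls, 12.1 FPKM in replicate 1 and 2.57 FPKM in replicate 2. Jmjd1c had 7.13 and 7.59 FPKM in controls, 21.7 FPKM in replicate 1 and 6.03 FPKM in replicate 2. These 3 genes, named after their values were seen, were higher in replicate 1 and lower in replicate 2 than both controls. Trim28 was above both controls in both libraries, with 18.3 and 18.4 FPKM in controls and 29.3 and 21.1 FPKM with auranofin.

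**Figure D5:**
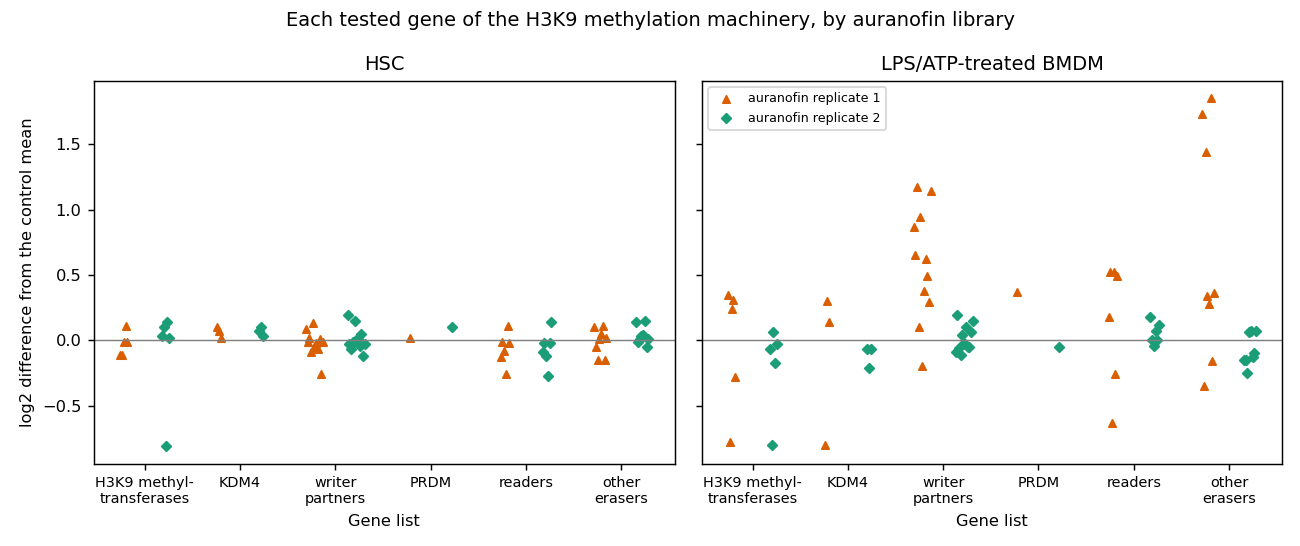
Log2 difference from the control mean of each tested gene, by list (the PRDM list holds other proteins described as H3K9 methyltransferases), in auranofin replicates 1 and 2 of HSC (left) and BMDM (right). In BMDM the differences are wide in replicate 1 and within 0.25 of 0 in replicate 2, except at Setdb2 (-0.80), and in HSC the one wide difference is Suv39h1 in replicate 2 (-0.81).

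Setdb2 has been described as an interferon-induced gene, and 18 interferon-induced genes were therefore set beside it. In BMDM their median stood at -0.47 from the control mean in auranofin replicate 1 and at 0.03 in replicate 2. Over all BMDM genes tested these medians were 0.18 and 0.00. Setdb2 stood at -0.78 and -0.80, the values by which it was chosen. Replicate 2 lay close to the controls at most genes, so nothing is read from this contrast. The chemokine gene Cxcl10, the most abundant of them, had 4967 and 5037 FPKM in BMDM controls, 2390 FPKM in replicate 1 and 5295 FPKM in replicate 2. In HSC, 16 of the 18 passed the filter and had a median of -0.20. All 16 were below 0, beside 5803 of all 12149 genes tested, and 2 were called, where 2.33% of all genes were. The called genes were Cxcl10 (13.9 and 12.8 FPKM in controls, 7.74 and 7.82 FPKM with auranofin, log2 fold change -0.70, adjusted p = 0.00565 by limma) and Ifit1 (-0.42, adjusted p = 0.0338 by limma).

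The 4 genes described as repressed by SETDB2 in macrophages were also examined. In BMDM auranofin replicate 2, Cxcl1 (190 FPKM, controls 201 and 190), Il1b (1739 FPKM, controls 1593 and 1708) and Tnf (1959 FPKM, controls 2087 and 2001) lay within 0.08 of the control mean on the log2 scale, and Xdh was 0.17 below it. In replicate 1, Cxcl1 was at 431 FPKM, above the controls, and Il1b (796 FPKM), Tnf (1790 FPKM) and Xdh (66.8 FPKM) were below them. None of the 4 was above the controls in both libraries, where 26.3% of all BMDM genes tested were. With so few genes nothing is read from this count. In HSC, 1 of the 4 was called, where 2.33% of all genes tested were. It was Tnf, with 11 and 10 FPKM in controls and 7.96 and 8.04 FPKM with auranofin (log2 fold change -0.36, adjusted p = 0.0429 by limma).

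Marker genes of other cells were compared in the BMDM libraries in which Setdb2 was low. The 6 neutrophil markers summed to 168 to 175 FPKM in controls and to 229 to 232 FPKM in both auranofin libraries, with S100a8 at 54.9 and 58.5 FPKM in controls and 85.5 and 81.0 FPKM with auranofin. S100a9 and Ly6g were also above both controls in both, and Camp, Mpo and Elane overlapped with the controls. The macrophage markers summed to 11799 and 12631 FPKM with auranofin, against 11450 to 11828 FPKM in controls. The part of these differences in the Setdb2 value was not tested.

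The genes whose pattern over the 8 libraries was most like that of Setdb2 were Hipk2, Spg11, Fbrsl1, Rab5c and Tcf25, with Pearson's r from 0.983 to 0.935. The r was taken over the deviations of each library from the mean of its table, among 5522 genes whose mean reached 5 FPKM in both tables, and 19 genes reached 0.9. It is a description over libraries that all genes share. It does not take the size of a change into account. In BMDM the log2 fold changes of these genes were -0.47, -0.17, -0.53, -0.51 and -0.10 in the order named, and that of Setdb2 was -0.79. Hipk2, encoding a nuclear kinase, had 19.0 and 19.4 FPKM in BMDM controls and 14.2 and 13.1 FPKM with auranofin. In HSC it had 24.6 and 27.2 FPKM in controls and 25.0 and 27.3 FPKM with auranofin, so that, as for Setdb2, both groups held a lower and a higher library. Rab5c, encoding a GTPase of early endosomes, had 180 and 181 FPKM in BMDM controls and 118 and 135 FPKM with auranofin.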

How the data were processed

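Stranded mRNA libraries were sequenced. For HSC and for BMDM the authors deposited 1 table of FPKM values, made on mm10 and RefSeq transcripts. The submitters' processing notes name CASAVA, FastQC 0.11.7, Trimmomatic 0.38, HISAT2 2.1.0 and StringTie 1.3.4d. The deposited FPKM values carry no counts, so no count test was used. Depth was estimated from genes with 1 transcript, where low values (under 0.2 FPKM) are whole multiples of 1 fragment, and it covers counting error only.

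Each table was fitted alone. Values were taken as log2(FPKM + 1), which understates the change of low genes, and genes whose mean reached 1 FPKM over 4 libraries were tested with limma (eBayes with trend), with Benjamini-Hochberg adjustment over all of them. A gene was called at an adjusted p under 0.05. With 2 libraries a group, the smallest two-sided p of an exact permutation test is 0.333. The fit was tested on simulated data with 200 changed genes.

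The 9 genes and all lists were chosen with earlier results of these data known. Named genes were the 9 members, list genes called in HSC, the 2 highest of a list in each table, neighbours within 200 kb of Setdb2 and the 5 genes most like it. Hmox1, Gpx1, H2-Q7, Atp6v0c-ps2, Cbx5, Kdm3a, Kdm7a, Jmjd1c, Cxcl1, Mpo and Elane were named after their values were seen. Coordinates and promoter windows came from RefSeq tables of the same build. Protein sequences were not used here. Alternatives covered the pseudocount, the filter, the scaling, the variance trend, the replicate block, the threshold and each library left out. The fits ran in limma 3.58.1 on R 4.3.3, and tables and plots were made with Python 3.11.15, pandas 2.3.3, numpy 2.4.6 and matplotlib 3.10.9.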

Additional observations from a re-analysis of the deposited data

Results flagged for a closer look

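In 10 of the 60 named genes tested in both tables (16.7%), both auranofin libraries lay on one side of both controls in HSC and on the other side in BMDM. Over all 8963 genes tested in both tables, 603 (6.73%) did so. The named genes were chosen with results of these data known, so nothing is read from their share. The opposite direction was not tested, since the tables were normalized separately and the experiments differ in dose, time and LPS/ATP. Values are log2 fold changes, and those of BMDM auranofin replicates 1 and 2 are log2 differences from the control mean. Among the 9 genes of H3K9 methylation, Kdm4a had 0.08 in HSC and -0.43 in BMDM (-0.80 and -0.07 in replicates 1 and 2), and Suv39h1 had -0.41 in HSC and 0.15 in BMDM (0.24 and 0.06). The HSC value of Suv39h1 rests on auranofin replicate 2. Of the readers of the mark, Uhrf1 had -0.27 in HSC and 0.29 in BMDM (0.52 and 0.07), and Cbx1 had -0.11 and 0.18 (0.18 in both replicates). Smyd2 had -0.04 in HSC and 0.25 in BMDM (0.36 and 0.14), and Kdm5c had 0.03 and -0.17 (-0.25 and -0.08). The proliferation gene Mcm2 had -0.25 in HSC and 0.34 in BMDM (0.63 and 0.05). The endothelial marker Kdr had 0.17 in HSC and -0.64 in BMDM (-1.09 and -0.18). Xdh had 0.05 and -0.31 (-0.45 and -0.17), and Tcf25, one of the genes most like Setdb2, had 0.03 and -0.10 (-0.11 and -0.09). The BMDM values of Kdm4a, Suv39h1, Uhrf1, Smyd2, Kdm5c, Mcm2, Kdr and Xdh were over 1.5 times smaller in replicate 2 alone.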

How the results depend on the processing

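The Setdb2 value in BMDM ranged from -0.83 to -0.74 with each library left out and was -0.88 when libraries were centred on their medians. In HSC, Setdb2 ranged from -0.11 to 0.10 with each library left out and was 0.0042 after quantile normalization, and Ehmt2 was -0.01 after quantile normalization and -0.01 after centring. Leaving out each library gave -0.11 to 0.03 for Setdb1, -0.03 to 0.29 for Ehmt1, -0.03 to 0.03 for Ehmt2, -0.03 to 0.09 for Kdm4c and -0.81 to -0.01 for Suv39h1, so that 0 to 1 members were called in HSC, and 1 to 2 members were at least 1.5-fold changed in BMDM. The 2 are Setdb2 and, without auranofin replicate 2, Kdm4a. With a library left out, the lone library of a group was assumed to vary like the others. Over all HSC genes, 283 were called, 49 without a filter, 129 without the variance trend, 70 at 1.5-fold with an unadjusted p, and 177 to 493 with each library left out. Over all BMDM genes, 1 was called, 0 without a filter, 0 after quantile normalization, 2 without the trend, 14 at 1.5-fold with an unadjusted p, and 1 to 5997 with each library left out, the last without auranofin replicate 2. The cause was not tested. Of the HSC calls given above with a log2 fold change, only Cxcl10 (-0.70) reached 1.5-fold, so the others are not among the 70. The replicate block gave 282 genes in HSC and 1 in BMDM and called none of the 9 genes in HSC. The labels share only a number between groups, with deviations of same-numbered libraries correlating at 0.109 in HSC and -0.055 in BMDM. The levels as shares and as ranks, planned as alternatives to FPKM, stand in the report. In BMDM the 9 genes were described without a test. Ehmt1, Kdm4b and Kdm4c changed sign there under quantile normalization (-0.06, -0.09 and -0.08) and under centring (-0.02, -0.05 and -0.06). Without auranofin replicate 1, they and Setdb1 changed sign too (-0.17, -0.21, -0.07 and -0.07). Suv39h1, Ehmt2, Kdm4a and Setdb2 kept their sign in BMDM under the settings run.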
